A study of Mus musculus with 48 samples.

Results

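The semaphorin, ephrin, slit and netrin guidance genes were described here in the stroma of mouse lymph nodes, with and without B cell lymphoma. They were taken by name from the array's probe annotation: semaphorins of classes 3 to 7, plexins, ephrins, Eph receptors, slits, Robo receptors, netrins and the Unc5 receptors. The pattern found 64 of 19057 annotated genes. Of these, 52 were above background in at least 1 group and were tested among 13111 genes, and 12 were not. The study compared 4 stromal populations of skin-draining lymph nodes from naive mice and from mice that had received 200000 to 400000 Eμ-Myc lymphoma B cells intravenously. These tumor cells come from mice in which an immunoglobulin enhancer drives Myc in B cells, and per the labels they made up 4 to 10% of lymph node lymphocytes. CD45-depleted cells were sorted alive as CD45- and Ter119- into fibroblastic reticular cells (FRCs, CD31-gp38+), blood endothelial cells (BECs, CD31+gp38-), lymphatic endothelial cells (LECs, CD31+gp38+) and double-negative cells (DN, CD31-gp38-). Each of the 8 groups had 3 replicates, each measured on 2 array strips that were averaged, and each strip held 863780 to 1044181 beads.

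All mice were adult C57BL/6N animals of both sexes. Each array sample held 80 ng of RNA pooled from 4 to 6 sorts. The labels call the replicates biological without tying them to animals, so p-values measure the spread between these samples. Every cell type was run on a slide of its own, so slide and cell type cannot be told apart. On each slide the naive replicates took the first positions and the tumor replicates the last, so position and tumor state cannot be told apart. In RNA of sorted populations, fewer cells of a kind and less RNA per cell cannot be told apart either.

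Guidance cues were first known from growing axons and also steer endothelial cells and leukocytes. Class 3 semaphorins are secreted and act through neuropilins and plexins, whereas classes 4 to 7 are bound to membranes and mostly bind plexins directly. Ephrins are held at the cell surface, A types by a lipid anchor and B types by a transmembrane stretch, and signal to Eph receptors on a neighbouring cell. Slits are secreted ligands of Robo receptors, and netrins bind Dcc, neogenin and Unc5 receptors. In blood and lymph vessels, members of these families are known for sprouting, the separation of arteries from veins, valve formation and barrier control.

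The sorted populations carried their defining markers. Pecam1 (CD31) had naive means of 14.60 in BECs and 13.62 in LECs against 7.31 in FRCs and 7.50 in DN cells, all on a log2 scale. Pdpn (gp38) stood at 14.41 in FRCs and 14.20 in LECs, against 8.82 in BECs and 11.25 in DN cells. Prox1, the lymphatic regulator, was at 13.27 in LECs and at 8.86 or below elsewhere, and Pdgfra, a fibroblast receptor, was at 14.22 in FRCs and 11.43 in DN cells. Not every marker kept to 1 population. The epithelial Krt8 was at 14.58 in DN cells and Krt14 at 14.79 in FRCs, and the Schwann cell gene Sox10 at 12.78 in DN cells. Lyve1 was at 14.29 in LECs and 11.29 in BECs, and Glycam1 at 15.57 in BECs and 14.93 in LECs. The part of such RNA in the results was not tested. Among DN cells, naive replicate 2 stood apart. It correlated with the other naive DN replicates at 0.924 and 0.926 over all tested genes, while those correlated at 0.978 with each other, and the mean of its 10 FRC markers was 12.92 against 10.48 and 10.41. Leukocyte RNA also differed between the states: the mean of the 8 measured general leukocyte markers in DN cells was 11.31 and 8.90 in tumor replicates 2 and 3 and higher still in replicate 1, where naive replicates ranged from 7.91 to 8.39. In BECs it was 10.32, 11.36 and 8.21 in tumor replicates 1, 2 and 3, where naive replicates ranged from 8.20 to 8.60.

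The upstream sequences of 6 members are shown because these genes marked the naive populations in the results that follow. Robo4, Sema7a and Ephb1 were endothelial, Sema3a lymphatic, and Slit2 and Epha3 fibroblastic. Each run holds the 250 bases before a start in the RefSeq promoter table, read 5′ to 3′ along the gene on build GRCm38.p6. Capitals mark an ETS-type hexamer, AGGAAG or CGGAAG on either strand. These starts need not be the first of the gene. The windows of Sema3a, Slit2 and Sema7a lie inside the annotated genes, which begin at 13124822, 47981291 and 57939596. That of Robo4 lies partly inside its gene, which begins at 37401902.
Robo4, chr9:37401722-37401971, plus strand: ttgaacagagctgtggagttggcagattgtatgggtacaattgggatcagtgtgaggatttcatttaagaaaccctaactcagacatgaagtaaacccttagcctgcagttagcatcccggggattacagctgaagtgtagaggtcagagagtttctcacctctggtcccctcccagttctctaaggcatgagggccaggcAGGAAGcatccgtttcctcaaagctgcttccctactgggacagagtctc
Sema7a, chr9:57939862-57940111, plus strand: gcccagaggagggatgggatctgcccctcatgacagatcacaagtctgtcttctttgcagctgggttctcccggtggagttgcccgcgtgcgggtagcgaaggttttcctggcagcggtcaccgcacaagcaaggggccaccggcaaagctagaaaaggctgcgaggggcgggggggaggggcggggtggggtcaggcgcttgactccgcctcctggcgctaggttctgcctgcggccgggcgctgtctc
Ephb1, chr9:102354694-102354943, minus strand: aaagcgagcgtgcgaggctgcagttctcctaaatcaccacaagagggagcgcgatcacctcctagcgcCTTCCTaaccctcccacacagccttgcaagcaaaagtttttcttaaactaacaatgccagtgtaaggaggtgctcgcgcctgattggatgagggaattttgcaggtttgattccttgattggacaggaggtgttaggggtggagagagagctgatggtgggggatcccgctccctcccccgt
Sema3a, chr5:13396534-13396783, plus strand: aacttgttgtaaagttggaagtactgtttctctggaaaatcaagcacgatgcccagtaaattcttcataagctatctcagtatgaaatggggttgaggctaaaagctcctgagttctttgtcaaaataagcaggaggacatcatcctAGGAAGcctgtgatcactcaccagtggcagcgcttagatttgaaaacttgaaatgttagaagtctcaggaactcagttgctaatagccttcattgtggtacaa
Slit2, chr5:47982905-47983154, plus strand: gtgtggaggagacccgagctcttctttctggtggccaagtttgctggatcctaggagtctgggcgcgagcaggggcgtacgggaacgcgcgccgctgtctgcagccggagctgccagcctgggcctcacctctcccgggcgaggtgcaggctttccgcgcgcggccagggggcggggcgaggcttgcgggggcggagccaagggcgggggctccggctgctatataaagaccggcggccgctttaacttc
Epha3, chr16:63864176-63864425, minus strand: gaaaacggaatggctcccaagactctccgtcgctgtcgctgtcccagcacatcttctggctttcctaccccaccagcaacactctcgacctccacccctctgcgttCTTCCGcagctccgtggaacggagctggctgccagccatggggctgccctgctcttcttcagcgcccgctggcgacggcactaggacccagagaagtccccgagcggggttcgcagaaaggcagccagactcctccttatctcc
Of the 64 members, 56 had a promoter in the RefSeq table, with 72 promoters among them. The ETS-type hexamers occurred in 32 of these 72 windows (44.4%), against 39.2% of all 32851 windows of the same length. GGGCGG, the core bound by SP and KLF factors, occurred on either strand in 52 of the 72 windows (72.2%), against 32.7% of all windows. TATAAA occurred on either strand in 2 of them (2.78%), against 12.4% of all. Among members that were higher in both endothelial populations than in FRCs and DN cells, 6 of 13 windows held an ETS-type hexamer, and among those with the opposite pattern 6 of 10 did. These matches describe letters in a window and are not binding sites.

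The guidance genes differed widely between naive populations. Some pair of naive populations differed for 48 of the 52 tested members (92.3%), against 76.3% of all tested genes, by limma with Benjamini-Hochberg adjustment over all genes. A further pattern was defined after the values were seen. In it, 13 members were higher in both BECs and LECs than in both FRCs and DN cells (25%), where 7.02% of all genes were, and 9 members were higher in FRCs and DN cells than in both endothelial populations (17.3%), where 6.01% of all genes were. The endothelial genes were Efna1, Efnb2, Epha2, Ephb1, Ephb4, Plxna2, Plxnd1, Robo4, Sema3f, Sema6a, Sema6b, Sema7a and Unc5b. The FRC and DN genes were Efna4, Efna5, Epha1, Epha3, Epha7, Ephb6, Sema3b, Sema4b and Slit2. The first set was of the same size without any single naive replicate, and the second held 8 to 11 members.

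Single populations also had genes of their own. In FRCs, 7 members (13.5%) were higher than in each of the other 3 populations, where 7.36% of all genes were. They were Efna5, Epha3, Ntn5, Robo2, Sema6c, Slit2 and Slit3. In BECs there were 8 (15.4%), where 5.9% of all genes were, but 4 without BEC naive replicate 3 and 5 without LEC naive replicate 1. The 8 were Efna1, Efnb1, Ephb1, Plxnd1, Sema3g, Sema4c, Sema6d and Sema7a. In LECs there were 4 (7.69%), where 4.01% of all genes were, namely Ntn4, Sema3a, Sema3d and Unc5b. In DN cells there was 1 (1.92%), where 10.5% of all genes were, and this count ran from 0 without naive replicate 1 or 3 to 4 without naive replicate 2 (2 without LEC naive replicate 2).

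**Figure D1:**
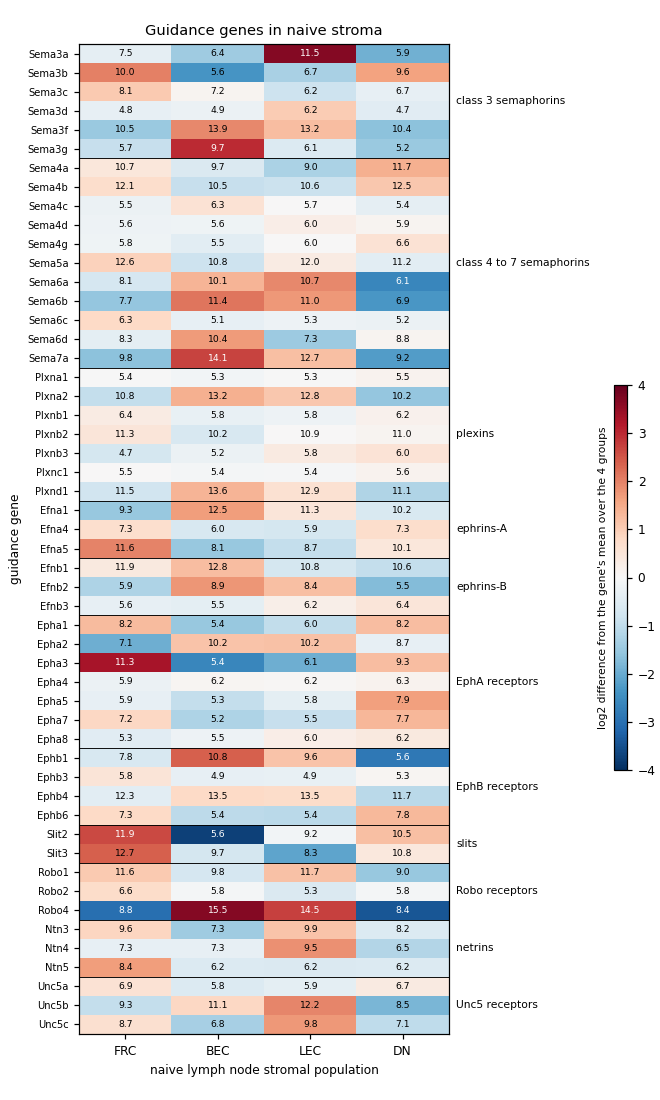
Mean log2 expression of the 52 tested guidance genes (rows, grouped by family) in the 4 naive populations (columns), printed in each cell, with n = 3 replicates per mean. Colour shows the difference from the gene's own mean over the 4 populations, and levels of different genes come from different probes and are not comparable. Robo4 (15.46 in BECs, 8.38 in DN cells) and Slit2 (11.94 in FRCs, 5.59 in BECs) span the widest ranges.

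Among class 3 semaphorins, the secreted ligands of neuropilins and plexins, each endothelial population had a gene of its own. Sema3a, which repels axons and is known for its part in lymphatic valve formation, had 11.56, 11.62 and 11.36 in naive LEC replicates 1, 2 and 3. The next highest population was FRCs with a mean of 7.48 ± 0.60 (SD, n = 3), which made Sema3a 16.4-fold higher in LECs (log2 difference 4.03, SE 0.33, adjusted p = 1.3e-08). Sema3g, an endothelial semaphorin, was at 9.54, 9.58 and 9.83 in naive BECs, 11.4-fold above LECs (log2 difference 3.51, SE 0.36, adjusted p = 9.1e-07), and in DN cells no replicate was above background. Among naive populations Sema3d was above background in LECs alone, at 6.15 ± 0.22 (n = 3), at least 1.45-fold over the background level. Sema3f was high in both kinds of endothelium, at 13.93 ± 0.31 in BECs and 13.25 ± 0.06 in LECs, without a difference between them that passed the test (adjusted p = 0.14). Sema3b had the opposite distribution, at 10.01 ± 0.16 in FRCs and 9.61 ± 0.59 in DN cells against 6.71 ± 0.24 in LECs and 5.64 ± 0.34 in BECs.

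Of the membrane-bound semaphorins, Sema7a, the lipid-anchored member that binds integrins and plexin C1, was highest in BECs. It was at 14.14 ± 0.14 there and at 12.66 ± 0.26 in LECs, a 2.79-fold difference (log2 1.48, SE 0.46, adjusted p = 0.024), and at 9.80 ± 0.63 in FRCs and 9.21 ± 1.41 in DN cells. Sema6d, a plexin A1 ligand, was also highest in BECs, at 10.43 ± 0.21, which was 3.04-fold over DN cells (adjusted p = 0.00082), and lowest in LECs at 7.28 ± 0.49. Sema6a and Sema6b, ligands of A-type plexins, were shared by the endothelial populations. Sema6b stood at 11.39 ± 0.25 in BECs and 10.99 ± 0.10 in LECs against 7.71 ± 0.19 in FRCs and 6.93 ± 0.56 in DN cells. Sema4a had its highest mean in DN cells, 11.65 ± 0.54, and its lowest in LECs, 8.96 ± 0.76 (adjusted p = 4.1e-05), but its step from DN cells to FRCs did not pass the test (adjusted p = 0.08). Sema5a was high throughout, from 10.79 ± 0.38 in BECs to 12.55 ± 0.04 in FRCs, and no neighbours in that order differed beyond the test.

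The plexins, receptors of semaphorins, fell into endothelial and broad members. Plxnd1, which receives Sema3e and is required for vessel patterning, was at 13.62 ± 0.17 in BECs, 12.88 ± 0.03 in LECs, 11.49 ± 0.12 in FRCs and 11.07 ± 0.65 in DN cells. BECs exceeded LECs 1.67-fold (adjusted p = 0.034), while FRCs and DN cells were not separated (adjusted p = 0.19). Plxna2 was at 13.18 ± 0.23 and 12.82 ± 0.17 in BECs and LECs, 10.81 ± 0.31 in FRCs and 10.21 ± 0.94 in DN cells. Plxnb2, a broad receptor of class 4 semaphorins, differed less, from 11.35 ± 0.30 in FRCs to 10.24 ± 0.31 in BECs. Plxna1 and Plxnc1 were barely inside the filter, with highest group means of 5.63 and 5.68 against a background level of 5.62, while Epha6 and Slit1 fell just outside it at 5.56 and 5.55. The neuropilins, co-receptors of class 3 semaphorins, were also unevenly spread: Nrp1 was at 14.95 ± 0.09 in BECs and 11.94 ± 0.92 in LECs (adjusted p = 0.00096), and Nrp2 was at 8.40 ± 0.05 and 8.24 ± 0.06 in these populations (adjusted p = 0.74) with 5.60 ± 0.25 in FRCs.

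The A ephrins split by cell type, while no B ephrin was higher in FRCs and DN cells than in both endothelial populations. Efna1, an inducible endothelial ephrin, had 12.58, 12.51 and 12.50 in naive BECs, and its order was BECs, LECs, DN cells and FRCs with every step passing the test (BECs over LECs 2.29-fold, adjusted p = 0.00021). Efna5 ran the other way, at 11.71, 11.60 and 11.52 in naive FRCs, 2.86-fold above DN cells (adjusted p = 8.9e-05) and 11.3-fold above BECs (adjusted p = 9.9e-10). Efnb2, the arterial ephrin that guides sprouting, was at 8.93 ± 0.13 in BECs and 8.38 ± 0.22 in LECs, and no naive DN replicate was above background, so BECs were at least 9.94-fold over the background level. Efnb1 was highest in BECs at 12.76 ± 0.05, but FRCs at 11.92 ± 0.10 were above LECs at 10.82 ± 0.38 (adjusted p = 0.0056). Efnb3 was low, with means from 5.54 in BECs to 6.43 in DN cells.

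Some of their receptors were endothelial and others were FRC and DN genes. Ephb1, a receptor of B ephrins, was at 10.95, 10.50 and 10.98 in naive BECs and 9.45, 9.50 and 9.71 in naive LECs, a 2.38-fold step (adjusted p = 0.00044), then at 7.78 ± 0.13 in FRCs and 5.56 ± 0.30 in DN cells, where 1 of 3 replicates was above background. Ephb4, the venous partner of Efnb2, was at 13.53 ± 0.10 in BECs and 13.46 ± 0.03 in LECs (adjusted p = 0.84), and Epha2 likewise stood at 10.17 ± 0.32 and 10.20 ± 0.01. Epha3, a receptor of A ephrins, was at 11.37, 11.57 and 11.13 in naive FRCs and below background in all 3 naive BEC replicates, at least 53.4-fold over the background level. In DN cells Epha3 was at 7.89, 11.42 and 8.57, and replicate 2 was the one with high FRC markers. Epha5 was the member that DN cells had above the rest, at 9.01, 5.75 and 8.82, 3.95-fold over FRCs on the means (adjusted p = 0.0091). Its replicate 2 lay within the FRC range of 5.73 to 6.13, and Epha7 showed the same split, at 9.11, 5.86 and 8.17.

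The widest ranges between naive populations among the 52 genes were those of Robo4 and Slit2. Slit2, a secreted ligand, was at 12.03, 12.16 and 11.61 in naive FRCs, 10.51 ± 0.52 in DN cells, 9.21 ± 0.09 in LECs and 5.59 ± 0.65 in BECs, and every step in that order passed the test. FRCs exceeded BECs by 6.35 on the log2 scale (SE 0.32, adjusted p = 1.6e-11), where 1 of 3 replicates was above background and the mean was not. Slit3 was at 12.74 ± 0.31 in FRCs, 3.85-fold above DN cells (adjusted p = 0.0059) and 22.2-fold above LECs (adjusted p = 8.7e-07). Robo4, the Robo of endothelium known for barrier stability, was at 15.51, 15.39 and 15.47 in naive BECs and 14.32, 14.73 and 14.54 in naive LECs. In DN cells it was at 8.63, 10.05 and 6.46 and in FRCs at 10.58, 6.74 and 9.01, so BECs exceeded DN cells 135-fold (log2 7.07, SE 0.75, adjusted p = 2.7e-07). Robo1, the broader receptor, was instead highest in LECs and FRCs, at 11.68 ± 0.05 and 11.56 ± 0.02, and lower in BECs at 9.83 ± 0.99 (LECs against BECs, adjusted p = 0.0024). On the probe used, Robo2 was low, at 6.60 ± 0.07 in FRCs, and below background in every naive LEC replicate. A dimmer Robo2 probe had naive means of 5.99 in LECs and 5.68 in FRCs. The remaining fitted Robo2 probes had naive means of 4.84 to 5.11 in LECs and 5.73 to 6.78 in FRCs.

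The netrins and their receptors each had an order of their own. Ntn5 was at 8.40 ± 0.57 (n = 3) in naive FRCs, with replicate 3 highest at 9.05, 4.6-fold over BECs (adjusted p = 4.4e-05), and the other 3 populations had means of 6.16 to 6.20. Ntn4, a basement membrane netrin, was at 9.60, 9.11 and 9.71 in naive LECs, 4.49-fold over FRCs (adjusted p = 0.0017). Ntn3 was at 9.92 ± 0.19 in LECs and 9.63 ± 0.03 in FRCs (adjusted p = 0.5), and lower in DN cells and BECs. Unc5b, the vascular netrin receptor, fell in steps that each passed the test, from 12.24 ± 0.28 in LECs through 11.14 ± 0.03 in BECs and 9.35 ± 0.30 in FRCs to 8.46 ± 0.25 in DN cells. Neogenin (Neo1), a netrin and repulsive guidance molecule receptor outside the named set, was highest in FRCs at 12.71 ± 0.36, 1.86 above DN cells on the log2 scale (adjusted p = 2.3e-05).

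Between tumor and naive groups, 3 of the 52 guidance genes changed in FRCs (5.77%), 3 in BECs (5.77%), 0 in LECs and 5 in DN cells (9.62%). In FRCs 0 rose and 3 fell, where 6.41% of all genes rose and 4.13% fell. In BECs 1 rose and 2 fell, where 3.6% of all genes rose and 1.48% fell. In LECs 0 rose and 0 fell, where 0.786% of all genes rose and 0.137% fell. In DN cells 2 rose and 3 fell, where 4.78% of all genes rose and 2.62% fell. The median log2 change of the members was -0.26 in FRCs, -0.17 in BECs, 0.02 in LECs and -0.17 in DN cells, where the median over all genes was -0.03, -0.04, -0.00 and -0.07. The change was below 0 for 39, 35, 24 and 33 of the 52 members (75%, 67.3%, 46.2% and 63.5%), against 52.5%, 53.8%, 50.2% and 57.3% of all genes. For 43 of the 52, the population with the highest mean was the same in naive and in tumor groups.

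**Figure D2:**
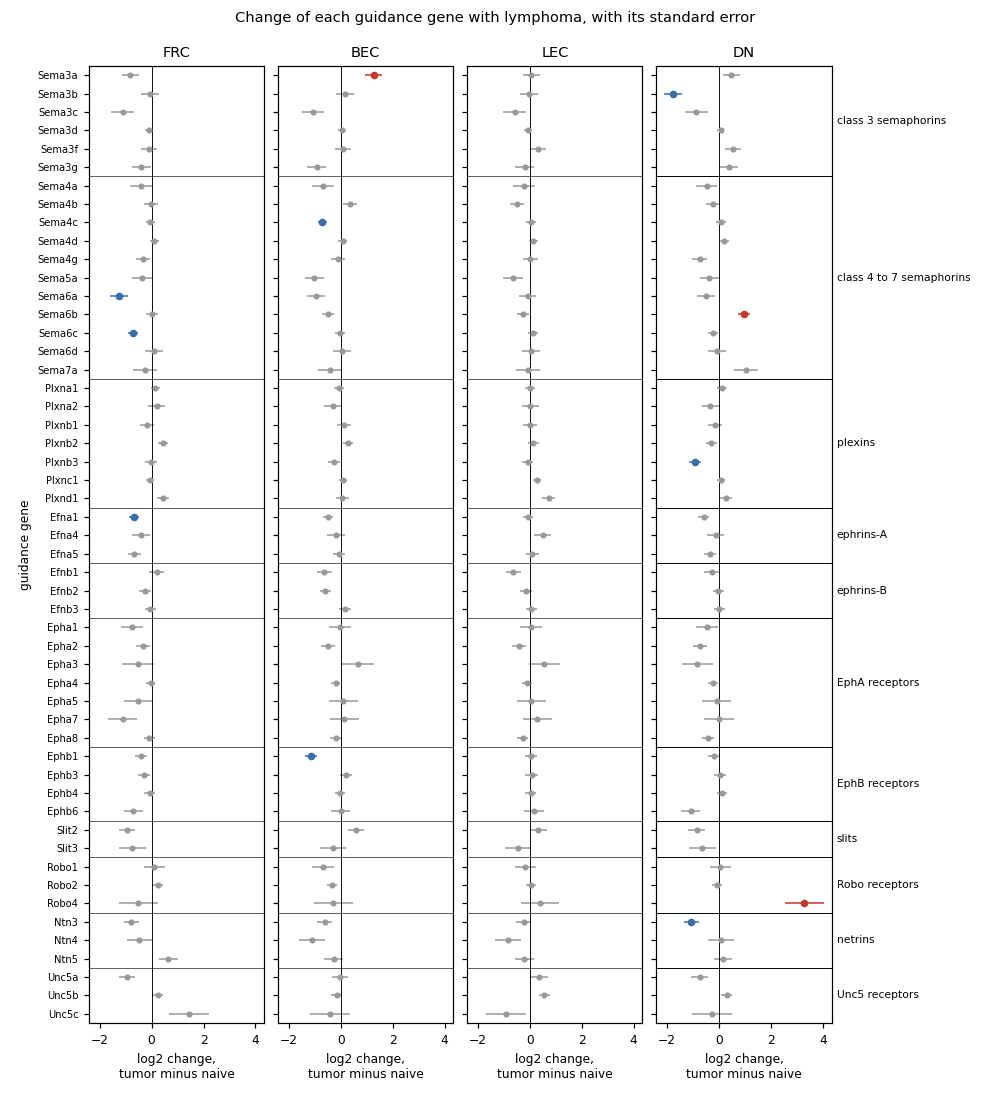
Log2 change, tumor minus naive, of the 52 tested guidance genes (rows, by family) in each of the 4 populations (panels), with bars for the standard error of the limma fit and 3 replicates per group. Red points rose and blue points fell at an adjusted p under 0.05, and grey points did not pass. Robo4 in DN cells, at 3.28, lies farthest from 0.

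In FRCs the 3 genes that fell were ligands. Sema6c, a membrane-bound semaphorin, was at 6.46, 6.49 and 5.85 in naive replicates and 5.41, 5.33 and 5.88 in tumor replicates. It fell by 0.72 on the log2 scale (SE 0.20, adjusted p = 0.023), with tumor replicate 3 just above the lowest naive value and 1 of 3 tumor replicates above background. Sema6a went from 7.66, 7.69 and 8.86 to 6.39, 6.79 and 7.23, without overlap, and fell by 1.26 (2.4-fold, SE 0.34, adjusted p = 0.023), a call that rested on the brightest of 4 probes, while the others, below background in FRCs, had changes of -0.22, -0.14 and -0.17. Efna1 went from 9.44, 9.39 and 9.17 to 9.09, 8.44 and 8.47, again without overlap, and fell by 0.67 (1.59-fold, SE 0.20, adjusted p = 0.042). Several other members had unadjusted p-values under 0.05 without passing the adjustment. With the 3 called genes included, 19.2% of the members had such a p-value in FRCs, against 25.5% of all genes. Slit2 went from 12.03, 12.16 and 11.61 to 10.50, 11.13 and 11.37 (log2 change -0.94, SE 0.32, adjusted p = 0.065). That value is from the brightest of 6 Slit2 probes: in a fit of every probe, 3 dimmer ones, above background in both FRC groups, fell by 1.94, 1.29 and 1.69 (adjusted p = 0.0063, 0.0032 and 0.00087), and the remaining 2 had changes of -0.30 and -0.51 that did not pass. In the same fit, 1 dimmer probe each of Plxnd1 (1.05), Robo2 (0.73) and Unc5c (0.84) rose and 1 of Plxnc1 (-0.56) fell in FRCs, where the probe used for the gene did not pass. Unc5a, a netrin receptor, had a change of -0.95 (adjusted p = 0.064), Ntn3 of -0.79 (adjusted p = 0.087), Sema3c of -1.11 (adjusted p = 0.12) and Plxnb2 of 0.45 (adjusted p = 0.17). By family, the median change in FRCs ranged from -0.84 for the slits to 0.23 for the Unc5 receptors, over members some of which were below background in FRCs. B cell markers had replicate means of 5.94 to 6.27 in naive and 6.61 to 7.27 in tumor FRCs, and general leukocyte markers of 6.29 to 6.90 and 7.10 to 8.64. The pericyte and smooth muscle list ran from 9.63 to 10.27 in naive and from 10.79 to 10.96 in tumor FRCs, and 3 of its 11 markers rose (Mcam, Des and Tagln). The part of these markers in the results was not tested. Without naive replicate 1 or 2 Sema6a alone passed, without tumor replicate 1 Efna1 alone, without tumor replicate 2 none, and without naive replicate 3 Sema3a, Sema6c and Unc5a did, while without tumor replicate 3 there were 4 (Sema3c, Sema6a, Sema6c and Slit2). Calls over all genes moved in these fits too, from 482 without tumor replicate 2 to 1422 without tumor replicate 3. None of the 3 guidance gene calls held on the bead files, where the adjusted p ran from 0.055 to 0.079, while Slit2 and Ntn3 passed there. Sema6c had a change of -0.02 on the second strips alone, where another of its probes was the brightest.

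In BECs the 3 genes that changed were a receptor and a ligand that fell and a ligand that rose. Ephb1, the gene with the smallest adjusted p, went from 10.95, 10.50 and 10.98 to 9.36, 9.45 and 10.22, without overlap, and fell by 1.13 on the log2 scale (2.2-fold, SE 0.23, adjusted p = 0.0065). Sema4c, a plexin B2 ligand, went from 6.26, 6.37 and 6.34 to 5.45, 5.46 and 5.94 and fell by 0.71 (SE 0.18, adjusted p = 0.026), with 1 of 3 tumor replicates above background. Sema3a went the other way, from 6.51, 6.55 and 6.19 to 7.83, 7.89 and 7.33, and rose 2.41-fold (log2 1.27, SE 0.33, adjusted p = 0.031), against 11.57 ± 0.07 in tumor LECs. A second probe of Sema3a, below background in BECs with means of 5.22 and 5.14, had a change of -0.08. A second probe of Ephb1, with means of 5.88 in naive and 5.43 in tumor BECs, had one of -0.45 (adjusted p = 0.28 in a fit of every probe). For each of the 3 genes tumor replicate 3 lay nearest to the naive values. This replicate also had the lowest B cell markers: the mean of the 7 measured was 9.04, 9.99 and 6.66 in tumor replicates 1, 2 and 3 and 6.15 to 6.61 in naive ones, and the part of these in the result was not tested. Efnb2 (-0.59, adjusted p = 0.13), Ntn4 (-1.11, adjusted p = 0.21) and Efna1 (-0.49, adjusted p = 0.18) had changes in BECs that did not pass. Without naive replicate 1 or 3 only Ephb1 passed, without naive replicate 2 Ephb1 and Sema3a did, without tumor replicate 1 or 2 none did, and without tumor replicate 3 there were 4, Ntn4 among them. Calls over all genes ran from 183 without tumor replicate 2 to 1364 without tumor replicate 3 in these fits. With the replicate number as a block, Sema3a and Sema4c were lost.

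In LECs no guidance gene passed the test with limma, and 3 had an unadjusted limma p under 0.05 (5.77%), against 8.83% of all genes. The methods' t-test without adjustment gave 4 higher and 3 lower, a count for which no share over all genes is given here. Plxnd1 went from 12.84, 12.91 and 12.88 to 13.15, 13.97 and 13.66, without overlap (log2 change 0.72, 95% interval 0.20 to 1.23, adjusted p = 0.26). Unc5b went from 12.37, 11.92 and 12.43 to 12.67, 12.86 and 12.87 (0.56, interval 0.12 to 1.00, adjusted p = 0.35). Efnb1, a transmembrane ephrin, had a change of -0.64 (interval -1.25 to -0.04, adjusted p = 0.52). Sema3a, the marked LEC gene, was at 11.56, 11.62 and 11.36 in naive and 11.63, 11.50 and 11.59 in tumor replicates, so its groups overlapped.

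In DN cells 5 members changed, each from another family. Robo4 was at 8.63, 10.05 and 6.46 in naive replicates and 11.35, 11.56 and 12.09 in tumor replicates. Every tumor replicate was above every naive one, and Robo4 rose 9.73-fold (log2 3.28, SE 0.75, adjusted p = 0.011). Sema6b, the other endothelial gene among them, went from 7.09, 7.39 and 6.31 to 7.43, 8.09 and 8.19 and rose 1.96-fold (log2 0.97, SE 0.23, adjusted p = 0.013). Only the brightest probe of each gene showed this: 2 dimmer probes of Robo4, below background in DN cells, had changes of -0.01 and -0.12, and a second probe of Sema6b had one of -0.25.

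Endothelial markers moved in the same DN replicates. Pecam1 was at 7.61, 9.15 and 5.74 in naive and 10.60, 10.57 and 11.11 in tumor replicates (log2 change 3.26, SE 0.65, adjusted p = 0.004), the same order among naive replicates as Robo4. Cdh5, the endothelial cadherin, was at 7.50, 8.56 and 5.87 and then 9.40, 10.04 and 9.84 (2.45, adjusted p = 0.0088). Of the 12 blood endothelial markers, 5 rose and 0 fell, and their mean per replicate ranged from 7.47 to 9.58 in naive and from 10.02 to 10.43 in tumor DN cells, while Prox1 overlapped between the states. These markers' part in the rise of Robo4 and Sema6b was not tested.

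**Figure D3:**
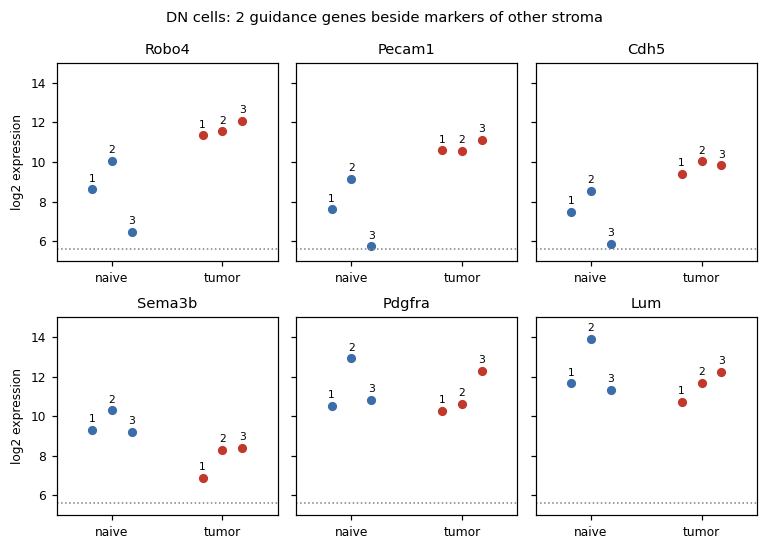
Log2 expression in DN cells of Robo4 and Sema3b beside the endothelial markers Pecam1 and Cdh5 and the fibroblast markers Pdgfra and Lum, each point 1 replicate with its number, blue naive and red tumor; the dotted line is the background level of 5.62. Robo4, Pecam1 and Cdh5 share the order 2, 1, 3 among naive replicates and are higher in every tumor replicate, while Pdgfra and Lum are highest in naive replicate 2.

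The 3 genes that fell in DN cells were 2 secreted ligands and a plexin. Sema3b went from 9.32, 10.29 and 9.22 to 6.88, 8.29 and 8.40, without overlap, and fell by 1.76 on the log2 scale (3.38-fold, SE 0.34, adjusted p = 0.0034). A second probe of Sema3b gave -1.84 (adjusted p = 0.0009), and 2 further probes, with means of 5.58 or below, each gave -0.16. Plxnb3, a plexin of low signal, went from 5.91, 6.00 and 6.05 to 5.02, 5.02 and 5.16, all below background, so it was at least 1.29-fold lower (adjusted p = 0.013). Ntn3 went from 7.86, 8.45 and 8.38 to 6.25, 7.38 and 7.89, with tumor replicate 3 inside the naive range, and fell by 1.06 (2.08-fold, SE 0.29, adjusted p = 0.03). A second probe of Ntn3, with means of 5.82 in naive and 5.65 in tumor DN cells, gave -0.17 (adjusted p = 0.7 in a fit of every probe). Slit2 (-0.86, adjusted p = 0.1), Ephb6 (-1.09, adjusted p = 0.076), Epha2 (-0.74, adjusted p = 0.1), Efna1 (-0.59, adjusted p = 0.085) and Unc5a (-0.75, adjusted p = 0.16) did not pass. B cell markers rose in the same comparison, 5 of the 7 measured, with means of 10.80, 10.33 and 7.47 in tumor replicates 1, 2 and 3 against 5.98 to 6.71 in naive ones, and tumor replicate 1 was also the lowest for Sema3b and Ntn3. What part this had was not tested. Without naive replicate 2 there were 14 calls in place of 5, without naive replicate 3 only Plxnb3 and Sema3b, without tumor replicate 1 Robo4, Sema3b and Sema6b, and without tumor replicate 2 Plxnb3, Robo4 and Sema3b. Sema3b passed in every such fit and Robo4 in all but that without naive replicate 3 (log2 2.32, adjusted p = 0.063). Calls over all genes moved in these DN fits as well. They ran from 311 without tumor replicate 1 to 2141 without tumor replicate 3, and were 1949 without naive replicate 2.

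**Figure D4:**
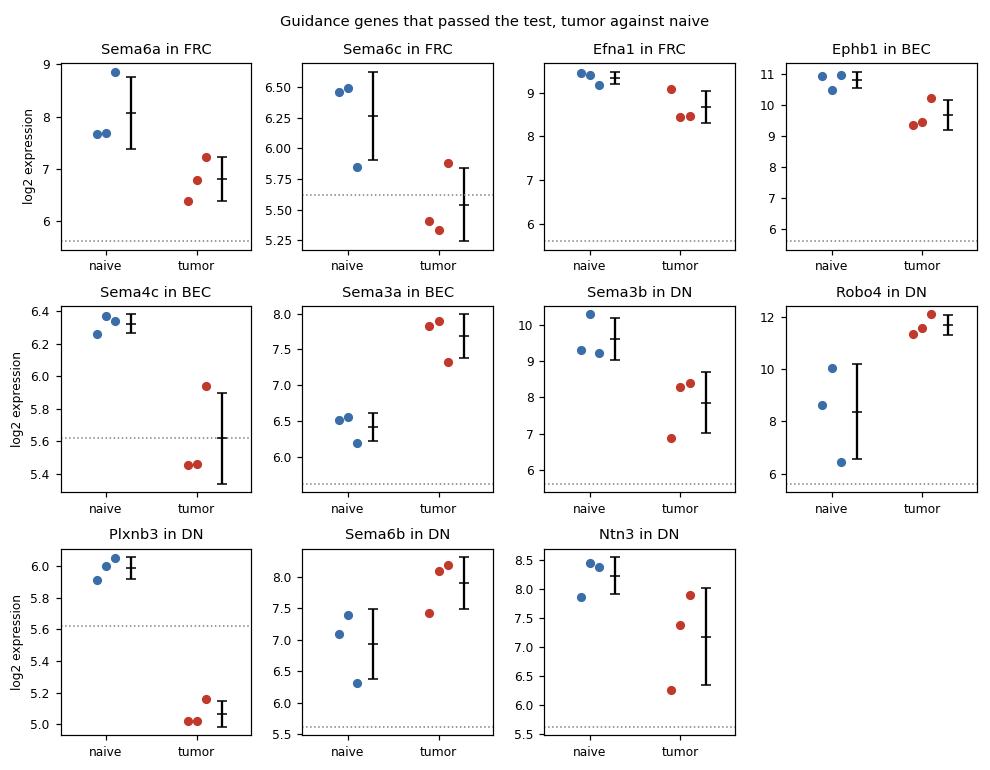
Log2 expression (vertical axes, each with its own range) of the 11 guidance gene and population pairs that passed the test, blue points for 3 naive and red for 3 tumor replicates, with mean and SD in black and the background level of 5.62 dotted where in range. Groups overlap for Sema6c in FRCs and Ntn3 in DN cells. The pairs were chosen by the test on these same values, so groups that lie apart are no further evidence.

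Whether the change differed between populations was tested directly. It did for Sema3a between FRCs and BECs: the change was -0.82 in FRCs, where replicates went from 7.66, 7.97 and 6.82 to 6.61, 6.51 and 6.85, and 1.27 in BECs (difference -2.09, SE 0.47, adjusted p = 0.04), where 0.931% of all genes differed. It also did for Sema6b between BECs and DN cells, with changes of -0.50 and 0.97 (difference -1.47, SE 0.32, adjusted p = 0.048), where 0.435% of all genes differed. No member passed for the other pairs, where 0.61% (FRCs and LECs), 1.25% (FRCs and DN cells), 0.00763% (BECs and LECs) and 0.259% (LECs and DN cells) of all genes did. Robo4 came near between FRCs and DN cells (difference -3.80, SE 1.06, adjusted p = 0.087), and Sema3b between BECs and DN cells (1.92, SE 0.48, adjusted p = 0.096). With the replicate block, or on either strip alone, no member passed in either comparison. Between FRCs and BECs none passed without naive or tumor replicate 1 or 2 of FRCs, BEC naive replicate 1 or 3, or BEC tumor replicate 1 or 2. Between BECs and DN cells none passed without BEC naive replicate 1 or 3, any BEC tumor replicate, DN naive replicate 1 or 3 or DN tumor replicate 2, and 5 did without DN naive replicate 2.

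Genes that work with these families were counted from 3 lists. Over all genes, the shares that rose and fell were 6.41% and 4.13% in FRCs and 3.6% and 1.48% in BECs. They were 0.786% and 0.137% in LECs and 4.78% and 2.62% in DN cells. Each count below is of few genes and is to be read beside these shares. Of 13 measured co-receptors, 2 rose and 1 fell in FRCs, 1 fell in DN cells and 0 changed in BECs and LECs. Itga1, an integrin chain that pairs in a Sema7a receptor, rose 3.43-fold in FRCs (log2 1.78, SE 0.26, adjusted p = 0.00031), and Sdc3, a syndecan, rose 2.1-fold (adjusted p = 0.015). Neo1 fell in both FRCs and DN cells, by 1.01 and by 1.12 on the log2 scale (adjusted p = 0.019 and 0.013). Of 9 other ligands of these receptors, 2 fell in FRCs, 1 rose in LECs, 1 fell in DN cells and 0 changed in BECs: Flrt1, an Unc5 and latrophilin ligand, fell by 1.35 in FRCs (adjusted p = 0.00043) and rose by 1.28 in LECs (adjusted p = 0.0044), Rgmb fell by 1.05 in FRCs (adjusted p = 0.046) and Ntng1 fell by 1.79 in DN cells (adjusted p = 0.014). Of 29 measured intracellular effectors, 1 rose and 2 fell in FRCs, 0 rose and 2 fell in BECs, 0 changed in LECs, and 2 rose and 1 fell in DN cells. Arhgef12, an effector downstream of plexin B, fell in FRCs, BECs and DN cells by 0.54, 0.66 and 0.55 on the log2 scale (adjusted p = 0.032, 0.019 and 0.038). Rnd1, a plexin-binding GTPase, fell by 1.07 in BECs (adjusted p = 0.021), and Dpysl4, a collapsin response mediator, fell by 1.24 in FRCs (adjusted p = 0.023), where Gipc1, a neuropilin adaptor, rose by 0.60 (adjusted p = 0.016). In DN cells Arhgef15, an exchange factor of endothelium, rose 5.14-fold (adjusted p = 0.00032) and Mical1, a plexin effector, 2.12-fold (adjusted p = 0.024). Arhgef15 was at 8.96, 9.11 and 9.46 in DN tumor replicates 1, 2 and 3. The blood endothelial marker means rose in the same order, at 10.02, 10.04 and 10.43. Mical1 was at 9.57, 9.37 and 8.98, falling in the order of the general leukocyte marker means. The part of endothelial or leukocyte RNA in these changes was not tested.

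The 12 members whose mean was below background in every group were Efna2, Efna3, Epha6, Epha10, Plxna3, Plxna4, Sema3e, Sema4f, Slit1, Unc5d, Unc50 and Unc5cl. Unc50 and Unc5cl match the name pattern but are not netrin receptors. A probe below background gives no evidence that its gene is silent.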

How the data were processed

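RNA of 24 replicates (8 groups of 3) was measured on Illumina mouse bead arrays with 2 strips per replicate. The authors deposited 1 log2 value per probe and strip, and this table was used for all results. How it was normalized is not given in the sources used here. The deposited bead files hold 1 intensity per bead and served as an alternative. Their bead codes were linked to 43278 of 45160 probes by the profile of values over the strips (r over 0.9). Strips of 1 replicate correlated at 0.9807 to 0.9935.

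The 48 strips were quantile normalized and averaged per replicate. Of the annotated probes, 34885 had 1 gene symbol, 18 several and 10378 none. A probe was kept where a group mean exceeded the background level of 5.62 (the mode of 5.04 plus 3 robust SDs of 0.19), which left 21287 probes, and the brightest stood for each gene (5370 genes had more than 1). In 29 members with several probes, the others can differ, as given where it matters. A model of 8 group means was fitted with limma 3.58.1 in R 4.3.3, with Benjamini-Hochberg adjustment over 13111 genes and a threshold of 0.05. The code was tested on simulated data. Beads per probe (median 18 to 22 per strip) are no replicates, and the number of arrays limits the precision. Where no replicate of a group was above background, a fold is given as at least the distance to the background level.

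The members, the marker and pathway lists and the tests were chosen with earlier results of these data known. Named were every member called between tumor and naive groups, members higher in 1 naive population than in each other (5 per population with values), the member of each family with the smallest adjusted p where its unadjusted p was under 0.05, members whose change differed between populations, and called pathway genes. The 2 patterns shared by populations, and the naive values of further members given for their place in a family, were added after values were seen. Replicate numbers were checked for pairing by correlating deviations from group means. The 3 pairs of LECs gave 0.2, 0.23 and 0.15 and were taken as paired. This is an assumption: the labels state no pairing, and equal numbers of different naive populations gave up to 0.39 (BECs with LECs, replicate 3). The limma values and intervals given for single genes in LECs come from the model of group means, without pairs. FRCs gave 0.25, 0.026 and 0.09, BECs 0.042, -0.17 and -0.22, and DN cells -0.035, -0.19 and -0.022. The alternatives were other normalization, filters, probe choice, single strips, the bead files, array weights, 1 cell type fitted alone, a replicate block, the methods' t-test and leaving out each replicate. Figures were drawn with matplotlib 3.10.9.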

Additional observations from a re-analysis of the deposited data

Results flagged for a closer look

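Sema3a was singled out because its response to lymphoma differed between FRCs and BECs in a test of the difference itself: its change in FRCs minus that in BECs was -2.09 on the log2 scale. Sema6b was singled out in the same way between BECs and DN cells, with a difference of -1.47. Both depended on the processing. The count of members that differed held in 9 alternative settings and moved in 14 between FRCs and BECs. Between BECs and DN cells it held in 3 and moved in 20. A second probe of Sema3a, below background in both, had changes of -0.14 in FRCs and -0.08 in BECs. A second probe of Sema6b had changes of -0.67 in BECs and -0.25 in DN cells.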

How the results depend on the processing

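The counts of members higher in both endothelial populations (13), in FRCs and DN cells (9), in FRCs (7) and in LECs (4) stayed within 1.5 times under every alternative, and no count or named change reversed. The others moved as follows, given as members higher and lower with tumor, then as members whose change differed between populations. Array weights gave 5 and 15 in FRCs, 1 and 1 in LECs, 4 and 8 in DN cells and 12 lower in BECs, with 13 differing between FRCs and BECs, 8 between FRCs and LECs, 4 between FRCs and DN cells, 2 between BECs and LECs, 5 between BECs and DN cells and 4 between LECs and DN cells, and 3 members highest in naive DN cells. A fit of each cell type alone gave 0 and 0 in BECs and in DN cells and 1 and 6 in FRCs. The methods' t-test gave, adjusted, 0 and 0 in BECs and in DN cells and 1 lower in FRCs, and, unadjusted, 2 and 10 in FRCs, 4 and 3 in LECs, 9 lower in BECs and 1 higher in DN cells. Bead files gave 1 lower in BECs, 2 highest in naive DN cells and 0 differing between BECs and DN cells with or without background correction, with 1 (corrected) or 2 (uncorrected) differing between FRCs and DN cells and, uncorrected, 1 higher in DN cells. In FRCs they gave a similar count of calls but other genes: Efna1, Sema6a and Sema6c were lost with and without correction and Slit2 and Ntn3 were gained. Sema4c in BECs was lost with both, and Sema6b in DN cells without correction. The mean of all probes gave 0 higher in BECs, 1 higher in DN cells, 0 differing between BECs and DN cells, and 1 between FRCs and each of LECs and DN cells. The first strips gave 1 lower in BECs, the second 0 higher in BECs, 1 lower in FRCs and 5 highest in naive BECs, and with either alone 0 differed between FRCs and BECs or BECs and DN cells. Centred strips gave 5 lower in FRCs and 0 between BECs and DN cells, the deposited values as they stand 0 there, no filter 0 there and 0 between FRCs and BECs, the stricter filter 1 lower in BECs, and naive replicates alone 4 highest in naive BECs. Shares of all genes called under these settings and under the replicate block are not given here. These member counts can therefore not be read as particular to the guidance genes. The cause of these shifts was not tested.

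With the replicate block, BECs had 0 higher and 1 lower, and 0 members differed between FRCs and BECs or between BECs and DN cells. In LECs, whose numbers were taken as paired though the labels do not say so, the block left 0 calls as before. Of single genes it took the adjusted p past the threshold for Efna1 in FRCs (0.057), Sema6c in FRCs (0.076), Sema3a in BECs (0.087), Sema4c in BECs (0.068) and Plxnb3 in DN cells (0.057), and below it for Sema3c in FRCs (0.035).

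Leaving out 1 replicate, the members higher with tumor ran from 0 to 1 in BECs, 0 to 4 in DN cells and 0 to 0 in FRCs and LECs, and those lower from 0 to 3 in BECs, 1 to 10 in DN cells, 0 to 4 in FRCs and 0 to 0 in LECs. Calls over all genes between tumor and naive groups moved too. They ran from 482 to 1422 in FRCs, 183 to 1364 in BECs, 11 to 187 in LECs and 311 to 2141 in DN cells. Members highest in naive BECs ran from 4 to 8 and in naive DN cells from 0 to 4. Members whose change differed ran from 0 to 2 between FRCs and BECs, 0 to 5 between BECs and DN cells, 0 to 3 between FRCs and DN cells and 0 to 4 between LECs and DN cells.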
